A study of Mus musculus with 4 samples.

Results

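The genes examined here were the fibroblast growth factor (FGF) receptors *Fgfr1*, *Fgfr2* and *Fgfr3*, the receptor adaptor *Frs2*, the Sprouty inhibitors *Spry1*, *Spry2* and *Spry4*, the ERK phosphatase *Dusp6* and the ETS transcription factors *Etv4* and *Etv5*. They were chosen by gene symbol, and all 10 of the 10 were found among the 14924 genes of the expression table. Stranded mRNA-seq was run on whole lenses of mice at 1 month of age, with 2 S100A4-/- libraries and 2 libraries of wild type (WT) littermates, each made from 6 to 12 pooled lenses. All mice were on a C57BL/6J background, and the S100A4-/- mice carry a null allele of *S100a4* in every tissue. A pool mixes the lens epithelium with the fibers and mixes several animals, and the sex of the animals in each pool is not given in the sources used here. The values are normalized values, that is, the reads counted on a gene divided by 1 size factor per library, and 1 read is worth between 0.856 and 1.09. The S100A4-/- libraries held 81602367 and 74108017 reads on genes and the WT libraries 70253985 and 68038158.

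FGF signaling is the best known inducer of lens fiber differentiation. FGFs in the fluid behind the lens bind receptor tyrosine kinases on lens cells, Frs2 couples the receptors to the Ras and ERK kinase cascade, and ERK activity switches on genes such as *Etv4*, *Etv5*, *Dusp6* and the Sprouty genes. Dusp6 removes the activating phosphates of ERK and the Sprouty proteins block the cascade upstream of it, so the RNA levels of these feedback genes are often used as a readout of FGF signaling.

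Genotypes were compared with limma on log2(value + 1), and a gene was called where its p, adjusted by Benjamini and Hochberg over all genes tested, was at most 0.05. The targeted gene and the tissue were checked first. *S100a4* was at 14.6 and 18.2 in the S100A4-/- libraries and at 14419.8 and 14385 in the WT libraries, so each library matched its label. All 14 of the 14 lens fiber markers and all 9 of the 9 lens epithelium markers listed had reads in every library. The most abundant fiber marker, *Cryaa* (αA-crystallin), had values between 11948842 and 13333352. *Npnt* (nephronectin), the most abundant epithelium marker, had values between 5749.5 and 5990.3. *Foxe3*, a transcription factor of the lens epithelium, had values between 4810.1 and 5237. None of the 14 fiber markers and 1 of the 9 epithelium markers, the amino acid transporter *Slc38a3*, passed the test between the genotypes, with a log2 fold change of 0.23 (limma, adjusted p = 0.0261). At an unadjusted p under 0.05 there were 2 fiber markers and 3 epithelium markers, where 17.7% of all genes tested passed that level and 6.96% the adjusted one. edgeR called 2 fiber markers, *Crygs* and *Mip*, and 1 epithelium marker, and DESeq2 called 1 fiber marker, *Mip*, and 0 epithelium markers. Both of these fiber genes were lower in S100A4-/- lenses, *Mip* (the lens aquaporin) at 651160 and 650078 against 711929 and 703652.

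Of the 10 genes, 1 differed between the genotypes. *Fgfr1* rose by 16.7% in S100A4-/- lenses, and none of the other 9 genes passed the test in either direction. *Fgfr2* and *Fgfr3*, the more abundant receptors, and *Spry1*, *Spry2* and *Etv5*, the abundant feedback genes, had differences of less than 10% between the group means. The rarer genes *Spry4* and *Etv4* had the largest differences and the widest intervals. Across all 14780 genes tested, 5.62% were higher and 1.33% were lower in S100A4-/- lenses by the same test, or 6.96% in either direction, so 1 of 10 is close to the share among all genes. Those were 831 higher and 197 lower genes, or 785 and 55 with the libraries scaled to equal totals, where *Fgfr1* was called too. None of the 10 genes reached the threshold of the study's methods, which also asks for a 2-fold change and which 3.72% of all genes passed. At an unadjusted p under 0.05 there were 2 of the 10 genes, *Fgfr1* and *Spry4*, against 17.7% of all genes. edgeR and DESeq2, run on the reads recovered from the values, each called 1 of the 10.

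*Fgfr1* (ENSMUSG00000031565, GRCm38 chromosome 8 from 25513654 to 25575718, plus strand) encodes a receptor that binds FGFs with an intracellular tyrosine kinase. Its normalized value was 3752 and 3839 in S100A4-/- lenses against 3142 and 3360.2 in WT lenses. Both S100A4-/- libraries were above both WT libraries, and the gap between the groups was wider than the distance within either of them. The group means were 3795 ± 61.8 and 3251 ± 154 (SD, n = 2 each), and the log2 fold change was 0.22 (SE 0.05, limma, adjusted p = 0.00434), with a 95% interval from 0.12 to 0.33. As a fold this is 1.17, with an interval from 1.08 to 1.26. edgeR and DESeq2 gave adjusted p-values of 0.00416 and 0.0146. The call rested on single libraries and on the variance model, as the adjusted p was 0.184 without the first WT library, 0.0673 without the second S100A4-/- library and 0.357 in limma without the trend of variance with expression. The lens is measured here as a whole, so a difference in the number of cells of a type and one in the RNA per cell cannot be told apart.

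*Fgfr3* (ENSMUSG00000054252, chromosome 5 from 33721674 to 33737068, plus strand) was at 9412 and 9026 in the S100A4-/- libraries and at 9904 and 9529 in the WT libraries. Both S100A4-/- values were below both WT values, but the gap of the groups was narrower than the distance between the libraries of either group. The log2 fold change was −0.08 with a 95% interval from −0.17 to 0.02 (limma, adjusted p = 0.403). *Fgfr2* (ENSMUSG00000030849, chromosome 7 from 130162451 to 133123350 in GENCODE M21, whose span of the gene holds other genes, minus strand) was at 4653 and 4818 in the S100A4-/- libraries and at 4916 and 5014 in the WT libraries. Here too both S100A4-/- values were the lower ones, at a log2 fold change of −0.07 with an interval from −0.17 to 0.03 (limma, adjusted p = 0.518). As folds, the intervals ran from 0.890 to 1.02 for *Fgfr2* and from 0.890 to 1.01 for *Fgfr3*.

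Per kb of exon, *Fgfr3* held 61.3% and 59.6% of the RNA of the 3 receptors in S100A4-/- lenses against 63.5% and 61.7% in WT lenses. *Fgfr1* held 17.7% and 18.4% in S100A4-/- lenses against 14.6% and 15.8% in WT lenses. The share of *Fgfr1* was higher in both S100A4-/- libraries, and that of *Fgfr3* was lower in both. The sum of the 3 receptors per kb was 2145 and 2116 in S100A4-/- lenses against 2178 and 2157 in WT lenses. The order of sums this close depends on the size factors, so no difference in summed receptor RNA is read from it. The shares are given as values and were not tested on their own. They depend on the length used. With the longest transcript the WT means were 2289 per kb for *Fgfr3*, 1121 for *Fgfr2* and 645 for *Fgfr1*, against 1357, 481 and 329 per kb of exon. The reads are counted per gene, so the splice forms of a receptor that differ in the FGFs they bind are summed.

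*Frs2* (ENSMUSG00000020170, chromosome 10 from 117069427 to 117148534, minus strand) encodes the membrane-anchored adaptor that the activated receptors phosphorylate. It was at 909 and 835 in the S100A4-/- libraries and at 727 and 831 in the WT libraries. The groups touched rather than parted, since the lower S100A4-/- library lay just above the higher WT library. The log2 fold change was 0.16 with a 95% interval from −0.0041 to 0.33 (limma, adjusted p = 0.299).

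**Figure D1:**
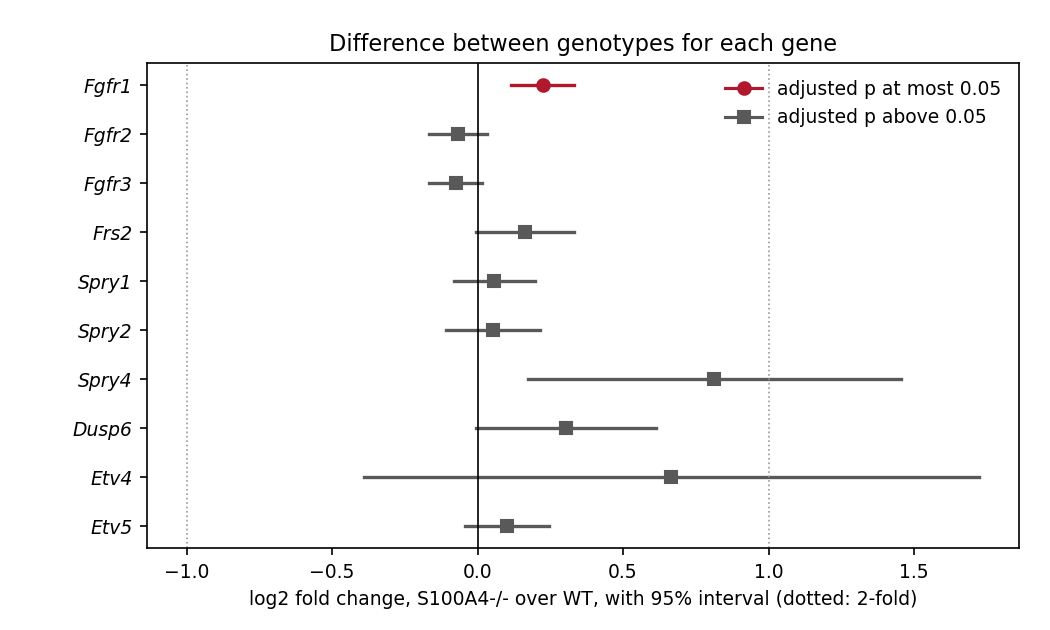
Difference between S100A4-/- and WT lenses for each of the 10 genes, as the log2 fold change (x axis) with its 95% interval from limma, the dotted lines marking a 2-fold change. *Fgfr1*, at 0.22, is the only gene drawn as a red circle for an adjusted p of at most 0.05, while *Spry4* and *Etv4* have the widest intervals.

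Among the Sprouty genes, which encode inhibitors of receptor tyrosine kinase signaling, *Spry1* and *Spry2* were abundant and *Spry4* was not. *Spry1* (ENSMUSG00000037211, chromosome 3 from 37639947 to 37644598, plus strand) was at 1380.4 and 1441 in the S100A4-/- libraries and at 1291 and 1424 in the WT libraries. At the size factors used, it was the only one of the 10 genes whose groups overlapped. Its log2 fold change was 0.06 with a 95% interval from −0.08 to 0.20 (limma, adjusted p = 0.742). *Spry2* (ENSMUSG00000022114, chromosome 14 from 105891947 to 105896819, minus strand) was at 795 and 813 against 779 and 771. Its 4 libraries lay close together and the groups were just apart, with a log2 fold change of 0.05 and an interval from −0.11 to 0.21 (limma, adjusted p = 0.805). *Spry4* (ENSMUSG00000024427, chromosome 18 from 38586247 to 38601415, minus strand) was at 54.8 and 55.7 in the S100A4-/- libraries and at 36.5 and 26.3 in the WT libraries. Both S100A4-/- values were above both WT values, and the WT libraries were further apart than the S100A4-/- libraries. These values stand for 64 and 55 reads against 35 and 24, and the log2 fold change of 0.81 had an interval from 0.17 to 1.45 (limma, unadjusted p = 0.0142 and adjusted p = 0.132). The interval is that of a single gene, so it can leave out 0 although the p adjusted over all genes did not pass, and edgeR and DESeq2 gave adjusted p-values of 0.147 and 0.520.

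*Dusp6* (ENSMUSG00000019960, chromosome 10 from 99263231 to 99267489, plus strand), the phosphatase of ERK, was at 191 and 209.8 in the S100A4-/- libraries and at 156 and 169 in the WT libraries. The groups did not overlap, and the log2 fold change was 0.30 with a 95% interval from −0.0048 to 0.61 (limma, adjusted p = 0.293). *Etv5* (ENSMUSG00000013089, chromosome 16 from 22381309 to 22439719, minus strand), a transcription factor of the PEA3 group, was at 1165 and 1263 in the S100A4-/- libraries and at 1133 and 1129.9 in the WT libraries. Its WT libraries were nearly equal and both S100A4-/- libraries lay above them, at a log2 fold change of 0.10 with an interval from −0.04 to 0.24 (limma, adjusted p = 0.504). *Etv4* (ENSMUSG00000017724, chromosome 11 from 101769742 to 101785371, minus strand), its close relative, was at 19.7 and 18.2 against 13.6 and 9.85. With 23 and 18 reads against 13 and 9, a log2 fold change of 0.67 had an interval from −0.39 to 1.72 (limma, adjusted p = 0.557). That interval holds both no change and a 2-fold rise, so whether *Etv4* differed is not settled by these libraries.

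In 7 of the 10 genes both S100A4-/- libraries were above both WT libraries, in 2 (*Fgfr2* and *Fgfr3*) both were below, and in 1 (*Spry1*) the groups overlapped. This is the split at the size factors used. It was not repeated with equal library totals, where groups this close, as in *Frs2*, *Fgfr3* and *Spry1*, can part or overlap. Among all genes tested, 23.7% had both S100A4-/- libraries above and 23.2% had both below, so that the groups did not overlap in 46.9% of them. The median log2 fold change was 0.13 over the 10 genes and −0.01 over all genes tested. The 10 genes are measured in the same 4 libraries and several of them answer to the same pathway, so they are not 10 separate observations. In 7 of the 10 genes the whole 95% interval lay within 0.5 of 0 on the log2 scale, and *Dusp6*, *Spry4* and *Etv4* were the others.

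Within the lens, the levels of the 10 genes spread widely. Per kb of exon, the mean WT values were 1357 ± 37.0 (SD, n = 2) for *Fgfr3*, 481 ± 6.69 for *Fgfr2*, 467 ± 32.6 for *Spry1*, 371 ± 2.75 for *Spry2*, 329 ± 15.6 for *Fgfr1* and 276 ± 0.51 for *Etv5* (SD, n = 2 each). The lower part of the order was *Frs2* at 89.0 ± 8.43, *Dusp6* at 51.8 ± 2.94, *Spry4* at 6.61 ± 1.53 and *Etv4* at 3.77 ± 0.85 (SD, n = 2 each). *Fgfr2* and *Spry1* are the neighbours whose WT libraries overlapped, and all other neighbours in the order were apart in the 2 libraries. In S100A4-/- lenses *Spry1* (485 ± 14.8) and *Fgfr2* (459 ± 11.3) stood in the other order, and the ranks of the other 8 genes were the same. *Spry2* at 385 ± 6.14 and *Fgfr1* at 384 ± 6.26 (SD, n = 2 each) could not be told apart there. The order depends on the length used. With the longest transcript in place of all exons of the gene, *Fgfr2* stood at 1121 per kb in WT and 1069 in S100A4-/- lenses, *Fgfr1* at 645 and 753 and *Spry1* at 489.5 and 509, so that *Fgfr2* and *Spry1* were no longer neighbours and kept their order in both genotypes.

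**Figure D2:**
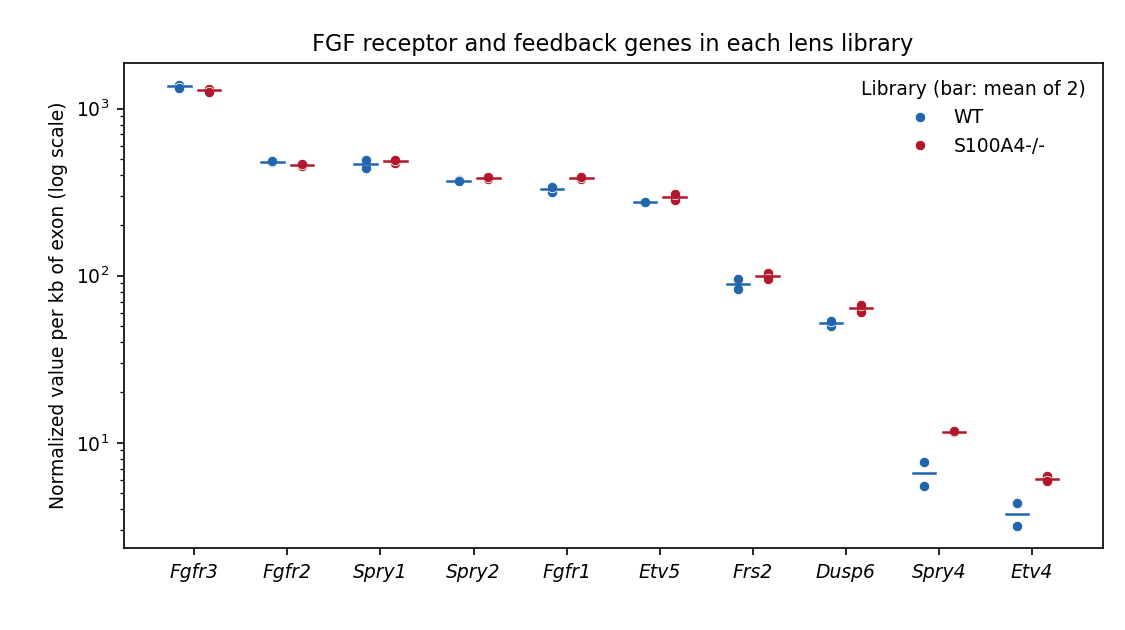
Normalized value per kb of exon (y axis, log scale) of the 10 genes in each library, in the order of their mean in WT lenses. Points are libraries and bars the mean of 2. *Fgfr3* is highest at 1357 in WT and *Etv4* lowest at 3.77, and the S100A4-/- points of *Spry4* and *Etv4* lie above their WT points.

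The starts of the genes were compared for CCGGAA, called the core here, a form of the site that ETS factors such as Etv4 and Etv5 bind. RefSeq promoter windows on GRCm38.p6, from 250 bases before to 50 bases after a start, were at hand for 7 of the 10 genes (*Dusp6*, *Etv5*, *Fgfr2*, *Fgfr3*, *Frs2*, *Spry1* and *Spry2*) and not for *Fgfr1*, *Spry4* and *Etv4*. The letters CCGGAA, searched on both strands, were found in 2 of the 7 genes, and in 29.6% of the 11101 genes of the expression table with a window. The longer CCGGAAG was found in 1 of the 7, *Frs2*, against 18.8% of those genes. ACAGGAAG and the cyclic AMP response element TGACGTCA were found in 0 of the 7, against 3.70% and 3.50%. *Frs2* held the core 96 and 62 bases before its RefSeq start at 117148474, which lies inside the GENCODE span given above, at chr10:117148553-117148582 and chr10:117148519-117148548, and *Spry2* 33 bases after its RefSeq start at 105896819, at chr14:105896770-105896799. The 30 bases around each match are shown because they are all the matches that these genes held, 5′ to 3′ on the strand of the gene, with the core in capitals (TTCCGG is the core read on the other strand):
Frs2, distal match: gcctgggagcagTTCCGGtgccaaacccct
Frs2, proximal match: tcccccgctcccCCGGAAgtgcttgtctag
Spry2: gaggtcatctatcCCGGAAtccgggagggt
These are matches of letters and no binding was measured. Apart from ACAGGAAG, ETS sites without CCGGAA were not searched, so a gene without a match may still hold one. The windows of 6 of the 7 genes had between 19 and 29 CG pairs (the mean of 2 windows in *Etv5* and *Fgfr3*), where the median of the genes in the expression table was 20, and that of *Fgfr2* had 4.

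The other genes of the pathway were compared from 8 lists of 114 genes, of which 90 were analysed here and 89 tested. The 8 lists include the intracellular FGF homologous factors (3 tested, 0 called), which are FGF relatives that do not bind FGF receptors. With limma, 3 of the 89 rose and 1 fell (4.49% in all, against 6.96% of all genes tested), and their median log2 fold change was 0.02. With equal library totals 3 rose and 0 fell. The 4 were *Flrt1*, *Fgfbp1*, *Gpc3* and *Ksr1*. Of the 89 genes, 3 (*Fgfbp1*, *Grb14* and *Dusp5*) reached the minimum value of 10 in S100A4-/- libraries alone and so entered the test through the group where they were high, while all 10 FGF genes reached it in both groups. edgeR called the same number in each list as limma, and DESeq2 called 0 of the 89. Of the FGF ligands, 3 of 18 were analysed here. *Fgf1*, which binds all the receptors, was at 919 and 857 in the S100A4-/- libraries and at 838 and 817 in the WT libraries (log2 fold change of 0.10, limma, adjusted p = 0.554). *Fgf2* was at 12.0 and 9.12 against 10.4 and 3.28, and *Fgf9* at 9.42 and 7.09 against 2.09 and 1.09, which is under the minimum for testing. None of the 2 ligands tested was called by limma, edgeR or DESeq2, and none had an unadjusted p under 0.05.

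Among 6 other receptors, co-receptors and FGF binding proteins, 2 rose. *Flrt1*, which encodes a transmembrane protein that can bind FGF receptors, was at 217 and 201 in the S100A4-/- libraries and at 131 and 141 in the WT libraries. The groups stood well apart, with a log2 fold change of 0.62 (SE 0.16, limma, adjusted p = 0.00828). *Fgfbp1*, which encodes a secreted carrier that frees FGFs from the matrix, had 31 reads over both S100A4-/- libraries and 1 over both WT libraries. Its ratio of 26.9 had a counting interval from 4.49 to 1097 (95%, exact), and the gene was called (limma, adjusted p = 0.0285), although its entry into the test depended on the S100A4-/- values. *Fgfrl1*, a receptor without a kinase domain, was the most abundant of this list at 3187 per kb in WT, above *Fgfr3*. It was at 8959 and 9263 in the S100A4-/- libraries and at 8792 and 8943 in the WT libraries, with a log2 fold change of 0.04 (limma, adjusted p = 0.726). At an unadjusted p under 0.05 there were 3 of the 6, where 17.7% of all genes passed that level. Besides *Flrt1* and *Fgfbp1* this was *Flrt2*, with lower values in S100A4-/- lenses. It was at 3671 and 3564 against 4013 and 3915 in WT lenses (log2 fold change of −0.13, limma, adjusted p = 0.139).

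Heparan sulfate chains hold FGFs at the cell surface, and of 21 enzymes and proteoglycans that make, trim or carry them, 1 rose. This was the glypican *Gpc3*, at 48.8 and 57.8 in the S100A4-/- libraries and at 24.0 and 24.1 in the WT libraries. This was a log2 fold change of 1.11 (SE 0.34, limma, adjusted p = 0.0343). With *Gpc3*, 4 of the 21 had an unadjusted p under 0.05, where 17.7% of all genes did. *Sulf2* had higher values (limma, adjusted p = 0.0773), and *Sulf1* and *Sdc2* had lower ones (limma, adjusted p-values of 0.0801 and 0.203). *Hspg2* (perlecan), the most abundant of the list, was at 40282 and 37863 against 33995 and 40507, and its groups overlapped (log2 fold change of 0.07, limma, adjusted p = 0.487). Of the 16 adaptors near the receptor, such as *Grb2*, *Shc1* and *Ptpn11*, limma, edgeR and DESeq2 called 0, and 1 had an unadjusted p under 0.05. That one was *Grb2*, at 1461 and 1446 in the S100A4-/- libraries and at 1662 and 1669.7 in the WT libraries (log2 fold change of −0.20, limma, adjusted p = 0.0558). *Shc1*, the most abundant of them per kb, was at 7334 and 7388 against 7311 and 7852 (log2 fold change of −0.04, limma, adjusted p = 0.722).

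Of 17 genes of the Ras, Raf, MEK and ERK cascade, 1 fell. *Ksr1*, a scaffold that brings Raf, MEK and ERK together, was at 1161 and 1255 in the S100A4-/- libraries and at 1374 and 1464 in the WT libraries. This was a log2 fold change of −0.23 (SE 0.07, limma, adjusted p = 0.0317). With *Ksr1*, 4 of the 17 had an unadjusted p under 0.05, against 17.7% of all genes. The others were *Nras*, *Braf* and *Rps6ka3*, at log2 fold changes of −0.13, 0.18 and 0.23 (limma, adjusted p-values of 0.249, 0.141 and 0.265). *Mapk3* (ERK1), the most abundant per kb of the cascade, was at 4526 and 4699.6 against 4450.2 and 4543, at a log2 fold change of 0.04 (limma, adjusted p = 0.777). The calls of *Flrt1*, *Fgfbp1*, *Gpc3* and *Ksr1* were each lost with DESeq2, at adjusted p-values of 0.0943, 0.109, 0.209 and 0.161, and in limma without the trend, and each was also lost with at least 1 library left out. That of *Ksr1* was lost with equal library totals as well (limma, adjusted p = 0.211), and quantile normalization ended those of *Fgfbp1*, *Gpc3* and *Ksr1* (limma, adjusted p-values of 0.149, 0.149 and 0.0765). Without the first S100A4-/- library 0 of these genes passed (limma, adjusted p-values of 0.176, 0.319, 0.168 and 0.297).

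The remaining feedback genes and ERK-induced transcription factors were compared in the same way. Of 9 other feedback inhibitors 0 were called by limma, edgeR or DESeq2, and 2 had an unadjusted p under 0.05, where 17.7% of all genes did. *Dusp1* was the most abundant, at 1081 and 996 in the S100A4-/- libraries and at 1027 and 1061 in the WT libraries. Those 2 were *Rasa3* and *Dusp5*, the latter tested through its S100A4-/- values alone. *Rasa3*, a Ras GTPase-activating protein, was at 95.9 and 109 against 75.2 and 51.5, with a log2 fold change of 0.71 (limma, adjusted p = 0.0600). *Dusp5* was at 21.4 and 18.2 against 9.40 and 6.57, with a log2 fold change of 1.23 (limma, adjusted p = 0.235). Of 15 transcription factors, the immediate early genes included, 0 were called by the same 3 tools, and 4 had an unadjusted p under 0.05, against the same 17.7%. Those 4 were *Jun*, with both S100A4-/- libraries below both WT libraries, and *Ier3*, *Fos* and *Egr1*, with both above. *Jun*, the most abundant, was at 907 and 1009 against 1140.2 and 1053 (log2 fold change of −0.20, limma, adjusted p = 0.135). *Egr1* was at 71.1 and 89.2 against 53.3 and 44.9, a log2 fold change of 0.69 (limma, adjusted p = 0.112). *Ier3* was at 47.1 and 36.5 against 15.7 and 24.1 (log2 fold change of 1.05, limma, adjusted p = 0.101). *Fos* was at 50.5 and 26.4 against 11.5 and 26.3 (log2 fold change of 1.02, limma, adjusted p = 0.183), and its lower S100A4-/- library was level with the higher WT library. The median log2 fold change was 0.17 over the 9 inhibitors and 0.09 over the 15 transcription factors.

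**Figure D3:**
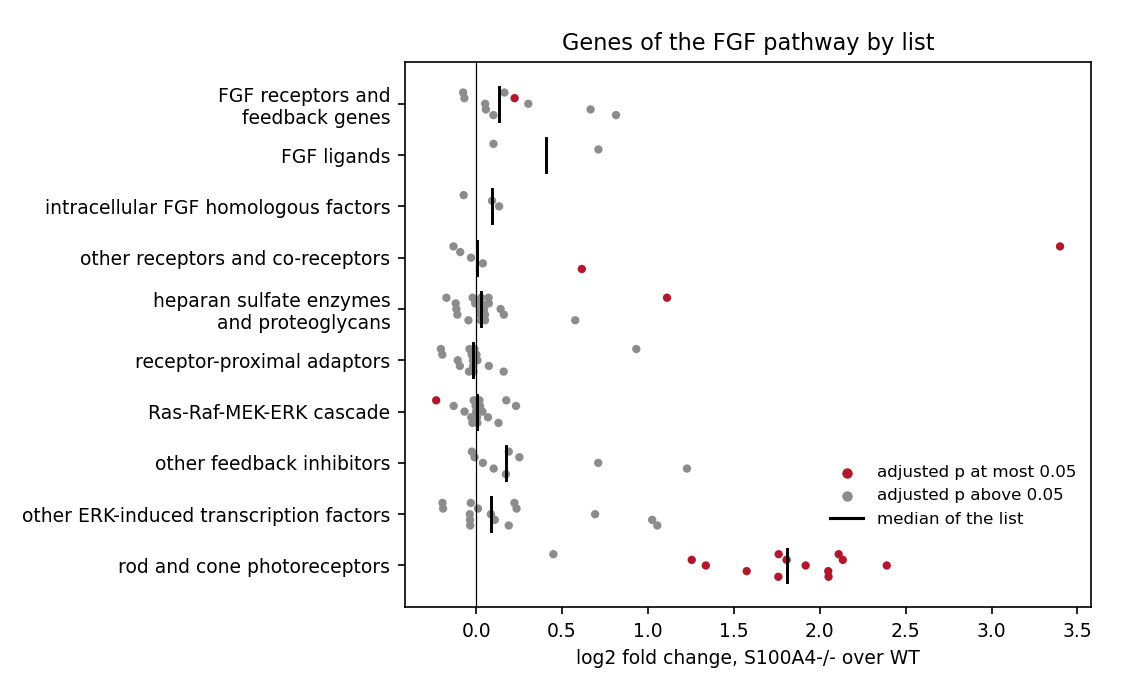
Log2 fold change between S100A4-/- and WT lenses (x axis) of each gene tested, by list, with the median of a list as a black bar and genes at an adjusted p of at most 0.05 in red. The lists of the FGF pathway have medians between −0.02 and 0.41. The highest is that of the FGF ligands, with 2 genes tested, and the next is 0.17. The photoreceptor markers shown for scale have a median of 1.81.

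Markers of other eye cell types moved with the genotype, and their values stand here beside *Fgfr1*, *Flrt1*, *Fgfbp1* and *Gpc3*. Of 13 rod and cone markers 12 rose, and their summed value was 9671 and 9570.4 in S100A4-/- lenses against 2375 and 2535 in WT lenses, with *Gnat1* (rod transducin) the most abundant at 3339 and 3327 against 736 and 782. Of 11 markers of inner retinal neurons 7 rose, with sums of 5803 and 5657 against 4047 and 4121, and the most abundant, *Tfap2a*, is also a lens gene. Of 10 markers of Müller glia and astrocytes 4 rose, among them *Glul* at 5387 and 5421 against 1779 and 1923. The sums of that list, between 174649 and 186957, are mostly *Vim* and *Dkk3*, which were among the abundant genes of the WT lens and did not pass the test. Of 9 pigment cell markers 8 rose, with sums of 1843 and 1846 against 491 and 616, and *Ttr* the most abundant. Of 8 ciliary body markers 7 rose, with sums of 9303 and 9015 against 3741 and 3962, and *Aqp1* the most abundant. Without *Aqp1* the sums were 6665 and 6516 in S100A4-/- lenses against 1464 and 1582 in WT lenses.

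Of 8 macrophage markers 3 rose, with sums of 269 and 255 against 99.2 and 83.2, *Csf1r* being the most abundant in WT. DESeq2 called 1 of these 8, and 9 of the 13 rod and cone markers. It called 6 of the 11 markers of inner retinal neurons and 7 of the 9 of pigment cells. In the lists of Müller glia, ciliary body, endothelium, and fibroblasts and cornea, DESeq2 called as many as limma. edgeR called as many as limma in all of these lists. Of 7 markers of blood vessel endothelium 2 rose, with sums of 436 and 444 against 162 and 212, and the genes that rose were *Flt1*, the most abundant, at 241 and 239 against 61.6 and 71.2, and *Kdr* at 74.5 and 60.8 against 9.40 and 9.85. *Kdr* and the pigment cell marker *Mlana* are the called markers that reached the minimum value in S100A4-/- libraries alone. *Pecam1* and *Cdh5*, also in the list, had values between 9.40 and 35.5 in all libraries and were not called. Of 5 markers of fibroblasts and cornea tested 1 rose, *Col1a2*, at 1103 and 1134 against 869.8 and 899. The sums lay between 4608 and 4813 in all 4 libraries and are mostly *Pdgfra*, and without it they were 1165 and 1182 in S100A4-/- lenses against 905 and 931 in WT lenses. No marker analysed here had 0 reads in a library apart from the corneal keratin *Krt12*, which had 0 in the second WT library. For comparison, the 10 FGF genes summed to 22332 and 22319 in S100A4-/- lenses against 22096 and 22264 in WT lenses, but this sum is mostly that of the 3 receptors, at 17817 and 17683 against 17962 and 17903, in which *Fgfr1* was higher and *Fgfr2* and *Fgfr3* had lower values. In normalized value *Fgfr1* differed by 544 between the group means. The part of these other cell types in the results on *Fgfr1*, *Flrt1*, *Fgfbp1* and *Gpc3* was not tested.

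**Figure D4:**
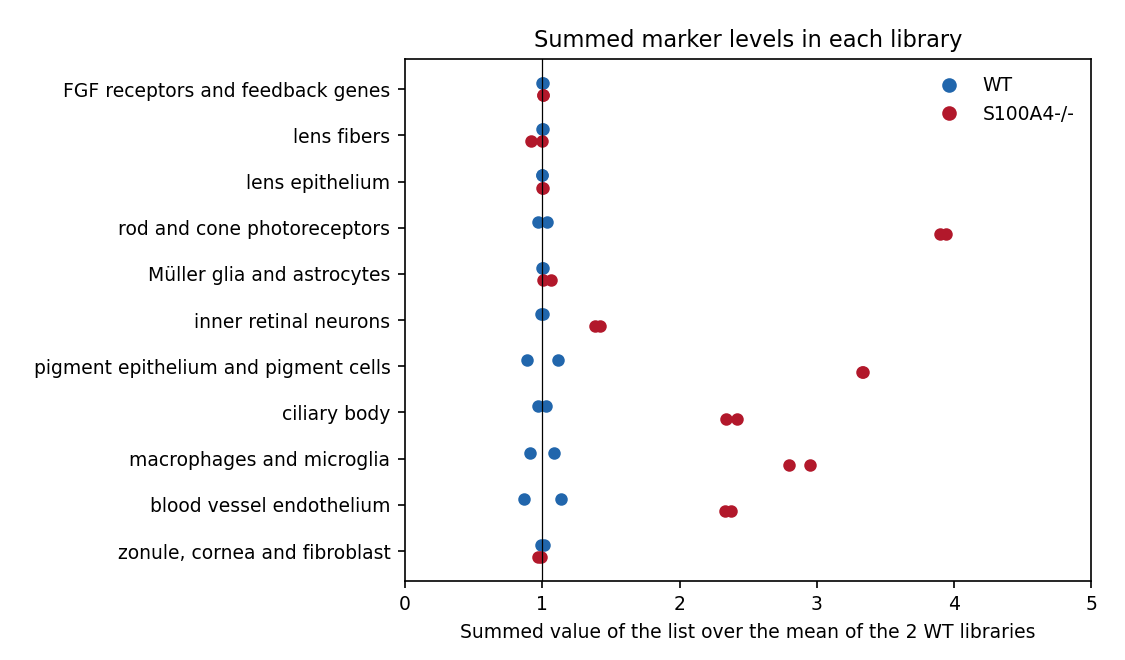
Summed normalized value of the 10 FGF genes and of each marker list in every library, divided by the mean of the 2 WT libraries (x axis, linear). The FGF genes, mostly the 3 receptors, lie between 0.996 and 1.01 in all 4 libraries, and the rod and cone markers at 3.94 and 3.90 in the S100A4-/- libraries.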

How the data were processed

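RNA-seq values of 2 S100A4-/- and 2 WT lens libraries were analysed, with groups and replicate numbers from the sample titles. By the study's methods and the processing notes, Trim Galore, STAR, HTSeq and DESeq2 were used in turn to trim, align to GRCm38, count reads of a single locus and normalize, and genes with few reads in every library were dropped. Tool versions and HTSeq's strand setting are not given in the sources used here. The signal values the authors deposited are read counts scaled by a size factor of each library, and cover 14924 genes. Of these values 100.0% in each library were a whole number of reads (within 0.01 read, or a millionth of a large value), which gave back the reads. Columns left without a sample numbered 0.

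Symbols, coordinates and the union of exons came from GENCODE M21 (GRCm38), which matched 14782 genes by identifier and may differ from the annotation used for counting. limma (trend) was fitted to log2(value + 1) of the 14780 genes that reached 10 in 1 library or more. This scale understates the change of low genes. Intervals are 95% and use the moderated standard error, and all intervals and the floor of 3 reads cover no more than the spread of these libraries or counting error. edgeR's quasi-likelihood test and DESeq2 on the recovered reads were alternatives. Deviations of same-numbered libraries from their group means had a correlation of 0.012 across genes, so the numbers were not taken to pair the libraries. The study calls the libraries biological replicates, and p-values measure the spread between pools.

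The 10 genes, the lists and the rule for naming were chosen with earlier results of these data known. The rule names the called genes and the most abundant per kb of each pathway list, and the most abundant gene of each list of markers. *Fgf2*, *Fgf9*, *Fgf12*, *Fgf13*, *Flrt2*, *Sulf1*, *Sulf2*, *Sdc2*, *Nras*, *Braf*, *Rps6ka3*, *Rasa3*, *Slc38a3*, *Crygs*, *Mip*, *Vim*, *Dkk3*, *Kdr*, *Mlana*, *Grb14*, *Col1a2*, *Grb2*, *Dusp5*, *Egr1*, *Ier3*, *Fos*, *Foxe3*, *Tfap2a*, *Glul*, *Pecam1*, *Cdh5* and the motifs were picked after their values or matches were seen. Python 3.11.15 was used with matplotlib 3.10.9, scipy 1.17.1, pandas 2.3.3 and numpy 2.4.6, and R 4.3.3 with DESeq2 1.42.0, edgeR 4.0.16 and limma 3.58.1.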

Additional observations from a re-analysis of the deposited data

How the results depend on the processing

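The 10 genes were refitted under 15 alternatives: pseudocounts of 0.5 and 5, no filter, a mean value of at least 50 (which leaves out *Spry4* and *Etv4*), edgeR, DESeq2, the replicate block, quantile normalization, TMM factors, equal library totals, limma without the trend, and each library left out. Fits without 1 library assume that the lone library of its group varies like the other group. Of 148 refits of single genes, 144 kept the direction and the side of the threshold, 3 lost the call of *Fgfr1*, and 1 turned *Spry1*, which ran from a log2 fold change of −0.014 without the first WT library to one of 0.13 without the second. The log2 fold change of *Fgfr1* stayed between 0.18 and 0.27, and none of the other 9 genes was called in any refit. The number of the 10 genes called was 0 in limma without the trend and 0 to 1 with a library left out. All genes called at an adjusted p of at most 0.05 numbered 1028 (831 higher, 197 lower), 785 higher and 55 lower with equal totals, 187 without the trend, 662 with DESeq2 and 491 to 890 with a library left out (491 without the first and 604 without the second S100A4-/- library). With a 2-fold change they numbered 550, against 287 with a mean of at least 50, 181 without the trend and 281 to 543 with a library left out. Of the pathway genes 4 were called, against 2 with a mean of at least 50, 1 with quantile normalization, 0 without the trend, 0 with DESeq2, 0 to 5 with a library left out and 8 with the replicate block, which changed no call among the 10 genes. The order of levels per kb kept all 10 ranks under equal totals and quantile normalization, and 7 of 10 with the longest transcript. *Etv4* and *Spry4* had 9 to 64 reads a library, and whether depth limited their results was not tested.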

Other observations

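The intracellular FGF homologous factors, which share the FGF fold but bind sodium channels rather than FGF receptors, were read in the same lenses. *Fgf12*, the most abundant by value, was at 333 and 364 in the S100A4-/- libraries and at 316 and 424 in the WT libraries. *Fgf11*, the most abundant per kb, was at 208 and 273 against 213 and 221, and *Fgf13* at 66.8 and 45.6 against 54.3 and 49.3. The groups overlapped in all 3 genes, limma, edgeR and DESeq2 called 0 of them, and none had an unadjusted p under 0.05.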
